A study of Homo sapiens with 12 samples.

Results

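The genes examined here encode subunits of the mitochondrial oxidative phosphorylation machinery in HepG2 cells, an established line from a human liver cancer that is widely used as a hepatocyte model. They were taken from the gene count table by name, as those beginning with NDUFA, NDUFB, NDUFC, NDUFS or NDUFV and a number, SDHA to SDHD, those beginning with UQCR, COX4 to COX8 with any ending, and ATP5 with any ending. Of 92 names that fit this pattern, 6 antisense, readthrough or pseudogene names were left out, which gave 86 of the 26364 genes in the table. By name, 38 belonged to complex I, 4 to complex II, 9 to complex III, 17 to complex IV and 18 to complex V. The rule used names and no measured value, though it was set with earlier results of these data known. The count filter kept 78 of the 86 for testing, among 13852 genes tested in all.

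RNA-seq was performed at 0, 5, 10, 30 and 240 min of insulin stimulation with 2 replicate libraries per time, and insulin receptor (IR) ChIP-seq in 1 library with 1 input. All groups were the same cell line. According to the labels they were kept in EMEM, a minimal medium, for 16 h and then given 3 nM insulin in EMEM with albumin (BSA). The deposited treatment text gives 5 min of insulin for every library, those at 0 min included, and the times used here are those of the sample titles. No library without insulin at a later time was used here, so time in the changed medium and insulin cannot be told apart. The labels only number the replicates, while the methods of the study describe the sequenced samples as biologically independent and from a single run of the experiment. The p-values measure the spread between libraries within that run. Cells for the ChIP-seq were kept without supplements for 2 days, then with insulin and BSA for 2 days, washed for 30 min and stimulated with 3 nM insulin.

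Libraries held 18347109 to 45005769 reads on genes, the second 0 min replicate being the deepest, and the 86 genes took 0.486% to 0.542% of them. ERCC spike-in reads made up 1.59% to 2.36% of the counts, with the highest share in the second 10 min replicate. The 9 hepatocyte markers summed to 40444 to 50925 TPM (a level scaled for transcript length and library size), and the fibroblast and endothelial markers to at most 0.993 and 2.07 TPM. Among 4 leukocyte markers, PTPRC had no read and CD3E at most 1 read in a library, whereas LYZ, which encodes the secreted enzyme lysozyme, had a mean of 9099 TPM and CD68 54.7 TPM.

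Oxidative phosphorylation turns the energy of NADH and succinate into ATP in the inner mitochondrial membrane. Complexes I and II pass electrons to ubiquinone, complex III passes them on to cytochrome c, complex IV reduces oxygen, and complex V, the ATP synthase, uses the proton gradient that complexes I, III and IV build. A few core subunits are encoded by mitochondrial DNA and the others, including all genes described here, by the nucleus, so that both genomes must supply matching amounts. The liver depends on this machinery for gluconeogenesis and fatty acid oxidation, and the nuclear genes are known as targets of the factors NRF1, GABP (an ETS family factor) and YY1 and of the PGC-1 coactivators. None of the mitochondrially encoded subunit genes was used here.

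Some names in the group need care. NDUFA4 is named for complex I but is found with complex IV, COX7A2L is a factor that joins complexes III and IV, and ATP5S and ATP5SL are mitochondrial proteins named after the ATP synthase that are not among its subunits. UQCRHL and ATP5L2 are intronless copies of UQCRH and ATP5L, and reads cannot be divided surely between such a gene and its copy. The complexes are nevertheless given below by gene name, as the names were chosen.

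By length-scaled level, complex IV genes stood highest, with a median over tested genes of 246 TPM in mean level, against 161 TPM for complex V, 105 TPM for complex I, 98.8 TPM for complex III and 77.7 TPM for complex II. Within every complex the levels spread widely. In complex I they ran from 20.9 TPM for NDUFS7, a core subunit with the iron-sulfur cluster that hands electrons to ubiquinone, to 323 TPM for the accessory subunit NDUFS5. In complex II they ran from 63.5 TPM for the membrane anchor SDHC to 134 TPM for the flavoprotein SDHA. In complex III the lowest was UQCRB at 48.9 TPM and the highest UQCRC2, a matrix-side core protein, at 316 TPM. In complex IV the range was from 122 TPM for COX8A to 542 TPM for COX4I1, a regulatory subunit.

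In complex V the catalytic F1 subunits ATP5A1 (alpha) and ATP5B (beta) were highest, at 607 and 601 TPM, and ATP5S was lowest at 19.1 TPM. Over the 10 libraries ATP5A1 ranged over 585 to 623 TPM and ATP5B over 562 to 627 TPM, so that these neighbours overlapped. The c ring of the ATP synthase is supplied by the genes ATP5G1, ATP5G2 and ATP5G3, which encode the same mature protein. ATP5G3 had 129 to 163 TPM, ATP5G2 98.2 to 154 TPM and ATP5G1 80.95 to 119 TPM over the libraries, so that neighbours in this order overlapped and ATP5G3 and ATP5G1 did not.

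**Figure D1:**
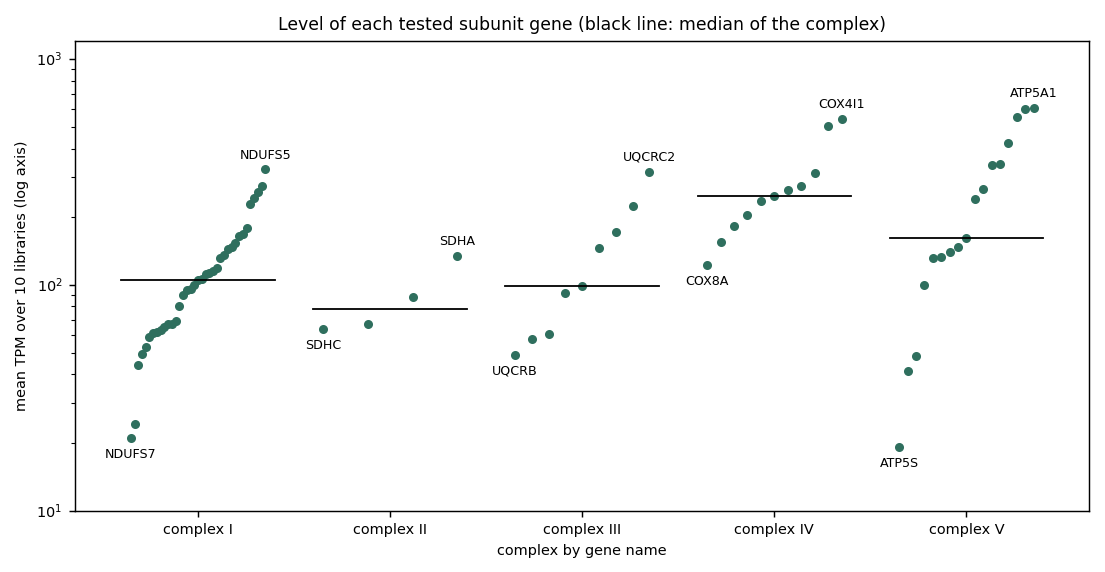
Mean level of each of the 78 tested genes over the 10 libraries in TPM (vertical, log axis), by complex (horizontal), with a black line at the median of each complex and the lowest and highest gene named. Levels ran from 19.1 TPM for ATP5S to 607 TPM for ATP5A1, and complex IV had the highest median, 246 TPM.

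The forms of complex IV subunits that are known from heart, skeletal muscle, testis or lung were at or near 0. COX6A2, COX7A1 and COX8C had 0 of 254846708 gene reads in the 10 libraries together, which allows a level of up to 0.0118 CPM (reads scaled to library size) for each, counting error only. COX4I2 had 1 read, COX7B2 3 reads and COX6B2 11 reads in all. Their liver or ubiquitous counterparts had a mean of 542 TPM for COX4I1, 234 TPM for COX6A1, 274 TPM for COX6B1, 181 TPM for COX7A2, 246 TPM for COX7B and 122 TPM for COX8A. NDUFA4 had 80.1 TPM and its relative NDUFA4L2, known as a hypoxia-induced gene, 16 reads in all, and the copy ATP5L2 had 36. These 8 genes were the ones that did not pass the count filter, and nothing is said of their change over time.

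Short motif cores, which the choice by name did not use, were counted in the upstream sequences of the genes. These cores were settled after a search with longer forms, so their shares are a description only. RefSeq promoters (build GRCh38.p14, 250 bases before to 50 after the start) were matched for 63 of the 78 tested genes and searched on both strands for short cores of known motifs, CATGCGC of NRF1, CCGGAAG of ETS factors and ATGGCGG of YY1. An NRF1 match was present in 14 of 63 (22.2%), against 4.67% of all 27305 promoters. An ETS match was present in 19 of 63 (30.2%, against 10.7%) and a YY1 match also in 19 of 63 (30.2%, against 5.72%). At least 1 of these was present in 36 of 63 (57.1%, against 18.4%). The 27305 promoters were not limited to the genes tested here, so these shares do not compare the group with other expressed genes. Matches of different motifs shared bases in 0 of the 63 promoters and in 8 of all 27305. A match is a description of sequence, and no binding of these factors was measured. The 120 bases upstream of the start are printed for the gene with the highest IR peak score (UQCR10), for a gene with an IR peak and all 3 matches (ATP5J), for a gene with an IR peak whose RNA fell at 240 min (NDUFA3), and for 2 others whose RNA fell (NDUFS7 and COX8A), each 5′ to 3′ on its gene's strand with matches in capitals.
UQCR10 (chr22:29767249-29767368, plus strand): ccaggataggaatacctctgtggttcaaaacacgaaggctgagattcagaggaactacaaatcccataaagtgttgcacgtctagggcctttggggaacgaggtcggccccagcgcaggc
ATP5J (chr21:25735055-25735174, minus strand): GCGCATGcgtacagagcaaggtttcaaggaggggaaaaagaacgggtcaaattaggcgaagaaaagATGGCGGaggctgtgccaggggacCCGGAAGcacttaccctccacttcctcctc
NDUFA3 (chr19:54102735-54102854, plus strand): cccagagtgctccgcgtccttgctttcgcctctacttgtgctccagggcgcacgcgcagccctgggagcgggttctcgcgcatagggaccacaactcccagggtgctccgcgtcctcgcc
NDUFS7 (chr19:1383787-1383906, plus strand): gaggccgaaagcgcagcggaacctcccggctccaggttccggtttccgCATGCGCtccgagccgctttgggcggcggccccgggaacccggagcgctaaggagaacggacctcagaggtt
COX8A (chr11:63974500-63974619, plus strand): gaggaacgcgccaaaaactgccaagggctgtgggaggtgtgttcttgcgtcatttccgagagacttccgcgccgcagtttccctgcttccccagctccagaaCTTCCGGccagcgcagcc
In ATP5J the capitals mark an NRF1, a YY1 and an ETS match in this order, in NDUFS7 an NRF1 match and in COX8A an ETS match. The printed bases of UQCR10 and NDUFA3 held none of these letters.

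At 240 min a minority of the subunit genes had changed, more of them downward, and the changes were small. Of the 78 tested, 6 were higher and 15 lower than at 0 min at a Benjamini-Hochberg adjusted p under 0.05 in edgeR's quasi-likelihood test, 26.9% in all, where 41% of all genes tested were called (20.6% higher and 20.4% lower). The share called among the subunit genes lay below that background, and the share called higher, 6 of 78, lay further below its own. The share called lower, 19.2%, was close to the 20.4% of all genes tested. The median log2 fold change was -0.066 over the 78, with 61 negative, and -0.0026 over all genes tested. That median was -0.026 with limma on log2(TPM + 1), with 45 negative, -0.038 with upper-quartile scaling, -0.043 without the first 0 min replicate, with 46 negative, and -0.11 without the second. The median size without sign was 0.105 on the log2 scale, against 0.205 over all genes tested. Both 240 min replicates lay below both 0 min replicates for 39 of 78 genes (50.0%), against 34.9% of all genes tested. RNA was measured in whole cultures, where fewer cells expressing a gene and less of its RNA per cell cannot be told apart.

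These counts depended on the scaling, on the tool and on a pair of libraries. With scaling to the ERCC reads in place of TMM, the median over the whole table was -0.12 at 240 min, -0.083 at 5 min, -0.33 at 10 min and -0.13 at 30 min on the log2 scale, and none of the subunit genes was called at any time. Of all genes tested, 7.65% were called with this scaling at 240 min, and at most 0.144% at 5, 10 or 30 min. Under this scaling the median over the subunit genes was -0.19 at 240 min, which is -0.067 relative to all genes. Leaving out the first 240 min replicate left 7 of the 21 calls and leaving out the first 0 min replicate left 9, whereas 16 to 22 genes were called without any other library. DESeq2 called 13 of the 21 and no other, and the limma fits on TPM called 13 or 14 of them and 1 other, ATP5E. Of all genes tested, DESeq2 called 32% and the limma fits 32.7% to 36.5%. The share of all genes tested that was called also fell when either replicate of 0 or 240 min was left out. Below, every change is relative to the TMM-scaled libraries.

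**Figure D2:**
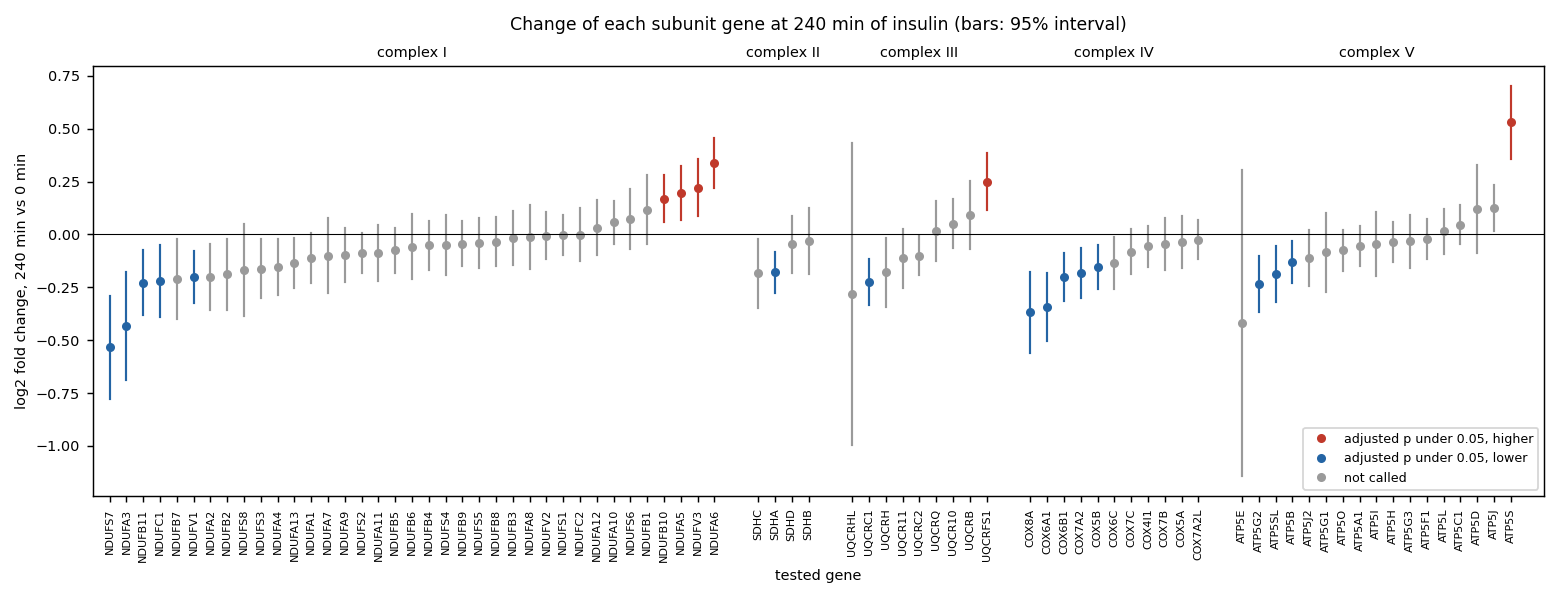
Log2 fold change at 240 min against 0 min of each of the 78 tested genes (vertical, with a 95% interval from its SE and a normal quantile), ordered within each complex (horizontal), with called genes in red (higher) and blue (lower) and others in grey. In complex IV 5 of 11 genes were called, all lower, and ATP5S, at 0.53, and NDUFS7, at -0.53, lay farthest from 0 among called genes.

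In complex I, 4 of 37 tested genes rose and 5 fell at 240 min, and 28 were not called. The share called was 24.3%, below the 41% of all genes tested (20.6% higher and 20.4% lower). The 4 that rose encode accessory subunits, which surround the catalytic core. NDUFA6, which holds an acyl carrier protein on the matrix arm (chr22:42481530-42486888, hg19), stood at 49.6 and 45.4 CPM at 0 min, 48.4 and 44.3 CPM at 5 min, 47.3 and 48.00 CPM at 10 min, 49.4 and 49.1 CPM at 30 min, and 61.2 and 57.9 CPM at 240 min. Both 240 min values lay above the other 8 (log2 fold change 0.34 ± 0.061 SE, edgeR adjusted p = 1.97e-04). NDUFV3, at the NADH-oxidizing tip, had 28.5 and 29.8 CPM at 0 min and 34.8 and 33.3 CPM at 240 min (log2 fold change 0.22 ± 0.068 SE, edgeR adjusted p = 0.01398). NDUFA5, in the same arm, had 41.4 and 42.1 CPM at 0 min and 48.7 and 46.7 CPM at 240 min (log2 fold change 0.19 ± 0.065 SE, edgeR adjusted p = 0.0226), and NDUFB10, in the membrane arm, had 49.7 and 48.2 CPM at 0 min and 56.6 and 53.1 CPM at 240 min (log2 fold change 0.17 ± 0.056 SE, edgeR adjusted p = 0.0206). For each of these genes the 2 times did not overlap, and 4826 of all 13852 genes tested also lay above in both replicates. The call on NDUFA6 held with each library left out. That on NDUFA5 was lost without either 0 min replicate or the first 240 min replicate (adjusted p up to 0.160), that on NDUFV3 without the first replicate of either time (up to 0.124), and that on NDUFB10 without the second 0 min or the first 240 min replicate. With DESeq2 NDUFA6 was the only one of the 4 called, NDUFA5 was also lost with limma on log2(TPM + 1) and with length and GC correction, and NDUFV3 with thinning to the smallest library.

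Among the complex I genes that fell, NDUFS7 (chr19:1383883-1395588) showed the largest change, from low counts. It stood at 8.03 and 7.93 CPM at 0 min, 6.69 and 5.79 CPM at 5 min, 7.72 and 6.82 CPM at 10 min, 6.39 and 5.78 CPM at 30 min, and 5.36 and 5.68 CPM at 240 min. All values after 0 min were below both at 0 min, and the 2 at 240 min were the lowest of all 10 (log2 fold change -0.53 ± 0.12 SE, edgeR adjusted p = 0.001997). NDUFV1, the core subunit that binds NADH and flavin, had 70.5 and 65.2 CPM at 0 min and 58.2 and 59.5 CPM at 240 min (log2 fold change -0.20 ± 0.063 SE, edgeR adjusted p = 0.0154). The other 3 encode small membrane-arm subunits. NDUFA3 had 9.23 and 7.52 CPM at 0 min and 6.32 and 5.78 CPM at 240 min (log2 fold change -0.43 ± 0.13 SE, edgeR adjusted p = 0.0118). NDUFB11 had 30.1 and 28.5 CPM at 0 min and 24.7 and 25.1 CPM at 240 min (log2 fold change -0.23 ± 0.079 SE, edgeR adjusted p = 0.0263), and NDUFC1 had 27.00 and 24.3 CPM at 0 min and 21.6 and 22.1 CPM at 240 min (log2 fold change -0.22 ± 0.086 SE, edgeR adjusted p = 0.0474). None of the 5 overlapped between the 2 times, and 34.9% of all genes tested also lay below in both replicates. The call on NDUFS7 held with each library left out, whereas the other 4 were lost without the first 0 min replicate. Without the first 240 min replicate those on NDUFB11, NDUFC1 and NDUFV1 were lost, without the second 240 min replicate those on NDUFA3, NDUFB11 and NDUFC1, without the second 0 min replicate that on NDUFB11, and without either 10 min replicate that on NDUFC1. DESeq2 did not call NDUFB11 or NDUFC1, the limma fits did not call these or NDUFV1, and NDUFC1 was also lost with upper-quartile scaling and NDUFB11 with length and GC correction. The 7 core subunit genes of complex I had a median change of -0.16 on the log2 scale, and 2 of them were called (28.6%, against 41% of all genes tested). NDUFS1, the largest core subunit, with iron-sulfur clusters, had 204 and 197 CPM at 0 min and 203 and 197 CPM at 240 min, which overlapped (log2 fold change -0.0024 ± 0.048 SE, edgeR adjusted p = 0.973).

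In complex II, succinate dehydrogenase, which is also an enzyme of the citric acid cycle, 1 of 4 genes fell. Among all genes tested 20.4% were lower. SDHA (chr5:218338-257197), the flavoprotein that oxidizes succinate, stood at 128 and 128 CPM at 0 min, 127 and 116 CPM at 5 min, 127 and 126 CPM at 10 min, 124 and 122 CPM at 30 min, and 113 and 112 CPM at 240 min. The 2 values at 240 min were the lowest and lay close together (log2 fold change -0.18 ± 0.050 SE, edgeR adjusted p = 0.00703). The call held with each library left out, with adjusted p up to 0.0437. SDHC had 40.4 and 37.9 CPM at 0 min and 32.02 and 37.02 CPM at 240 min (log2 fold change -0.18 ± 0.083 SE, edgeR adjusted p = 0.0858) and was called only without the second 240 min replicate, with no count filter, or after correction for gene length and GC content. SDHB, the iron-sulfur subunit, had 30.4 and 30.8 CPM at 0 min and 32.7 and 26.9 CPM at 240 min (log2 fold change -0.032), and SDHD, the other membrane anchor, had 41.1 and 35.9 CPM at 0 min and 36.7 and 37.3 CPM at 240 min (log2 fold change -0.046). Neither was called, and both overlapped between the times.

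In complex III, 1 of 9 genes rose and 1 fell, 22.2% in all, where 41% of all genes tested were called. UQCRFS1 (chr19:29698167-29704136), the Rieske iron-sulfur protein that passes electrons toward cytochrome c, stood at 33.3 and 30.6 CPM at 0 min, 32.8 and 33.3 CPM at 5 min, 33.6 and 32.3 CPM at 10 min, 31.4 and 31.5 CPM at 30 min, and 40.02 and 35.3 CPM at 240 min. Both 240 min values were above the other 8, the replicates there differing by more than at 0 min (log2 fold change 0.25 ± 0.069 SE, edgeR adjusted p = 0.00716), and without the second 0 min replicate or the first 240 min replicate the adjusted p was above the threshold, up to 0.187. UQCRC1 (chr3:48636432-48647098), a matrix-side core protein, stood at 125 and 115 CPM at 0 min, 112 and 102 CPM at 5 min, 116 and 115 CPM at 10 min, 116 and 109.7 CPM at 30 min, and 101 and 104 CPM at 240 min. It was lower at 240 min in both replicates than in both at 0 min (log2 fold change -0.23 ± 0.056 SE, edgeR adjusted p = 0.00317), and the call held with each library left out. Its partner UQCRC2 had 286 and 288 CPM at 0 min and 268 and 268 CPM at 240 min, a difference in the same direction that was not called (log2 fold change -0.100 ± 0.047 SE, edgeR adjusted p = 0.0993).

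In complex IV, cytochrome c oxidase, 5 of 11 genes (45.5%) fell and none rose, where 20.4% of all genes tested were lower. With DESeq2 3 of them fell, with each limma fit on TPM 2, without the first 0 min replicate 2 and without the first 240 min replicate 1. All 11 changes were negative in the edgeR fit, with a median of -0.14 on the log2 scale, against 10 with upper-quartile scaling, 9 with limma on TPM and 8 without the first 0 min replicate. The difference between complexes was not tested. In the alternative fits named here, fewer of all genes tested were also called. For 8 of the 11 (72.7%) both 240 min replicates lay below both 0 min replicates, against 34.9% of all genes tested. COX6A1 (chr12:120875893-120878545), the liver form of an accessory subunit, stood at 32.9 and 32.2 CPM at 0 min, 29.3 and 26.6 CPM at 5 min, 31.9 and 32.8 CPM at 10 min, 29.3 and 30.2 CPM at 30 min, and 23.1 and 28.5 CPM at 240 min. The first 240 min replicate was the lowest of the 10 libraries and the second lay within the range at 5 min (log2 fold change -0.34 ± 0.082 SE, edgeR adjusted p = 0.00233). Without that first replicate the adjusted p was 0.106. COX8A (chr11:63742079-63744015), a small accessory subunit, stood at 29.4 and 26.9 CPM at 0 min, 24.7 and 20.3 CPM at 5 min, 26.5 and 25.4 CPM at 10 min, 28.6 and 23.02 CPM at 30 min, and 21.3 and 22.1 CPM at 240 min. The 240 min values were below both at 0 min, but the second 5 min replicate was lower still (log2 fold change -0.37 ± 0.098 SE, edgeR adjusted p = 0.00528). With limma on log2(TPM + 1) or log2(TPM + 0.1) its call was lost, and the adjusted p of COX8A over all fits other than those with a library left out was at most 0.102.

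The other 3 that fell in complex IV changed less. COX6B1, on the side facing cytochrome c, had 69.8 and 65.5 CPM at 0 min and 56.01 and 61.6 CPM at 240 min (log2 fold change -0.20 ± 0.059 SE, edgeR adjusted p = 0.00984). COX7A2 had 55.2 and 54.9 CPM at 0 min and 47.4 and 49.7 CPM at 240 min (log2 fold change -0.18 ± 0.061 SE, edgeR adjusted p = 0.02198), and COX5B, a zinc-binding subunit, had 67.9 and 65.4 CPM at 0 min and 59.3 and 60.3 CPM at 240 min (log2 fold change -0.15 ± 0.053 SE, edgeR adjusted p = 0.0256). All 3 were lower in both replicates. The 3 calls were lost without the first replicate of either time, that on COX7A2 also without the second 0 min replicate, and that on COX5B also without the second 240 min replicate. DESeq2 did not call COX7A2 or COX5B, the limma fits on TPM did not call COX6B1 or COX7A2, and COX5B was also lost with upper-quartile scaling, with no count filter and with limma at a mean TPM of at least 1. COX4I1, the most abundant, had 187 and 181 CPM at 0 min and 181 and 173 CPM at 240 min (log2 fold change -0.057 ± 0.049 SE, edgeR adjusted p = 0.382), and COX7A2L had 122 and 116 CPM at 0 min and 117 and 116 CPM at 240 min (log2 fold change -0.024 ± 0.048 SE, edgeR adjusted p = 0.722). NDUFA4, which is found with complex IV although counted above with complex I, had 58.7 and 53.9 CPM at 0 min and 48.1 and 53.00 CPM at 240 min (log2 fold change -0.15 ± 0.067 SE, edgeR adjusted p = 0.0735).

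In complex V, 1 of 17 genes rose and 3 fell, 23.5% in all, where 41% of all genes tested were called. The gene that rose, ATP5S (chr14:50779047-50792946), is not a subunit of the enzyme, and it stood at 12.8 and 12.8 CPM at 0 min, 14.9 and 13.02 CPM at 5 min, 12.6 and 12.6 CPM at 10 min, 13.6 and 14.5 CPM at 30 min, and 17.99 and 19.1 CPM at 240 min. Both 240 min values were above all others, and the call held with each library left out, with adjusted p up to 0.00284 (log2 fold change 0.53 ± 0.089 SE, edgeR adjusted p = 9.19e-05). Of those that fell, ATP5B (chr12:57031959-57039852), the catalytic beta subunit, stood at 471 and 455 CPM at 0 min, 438 and 421 CPM at 5 min, 464 and 465 CPM at 10 min, 459.5 and 428 CPM at 30 min, and 413 and 433 CPM at 240 min. The first 240 min replicate was the lowest of the 10 and the second lay within the range at 5 min, and the adjusted p was close to the threshold (log2 fold change -0.13 ± 0.051 SE, edgeR adjusted p = 0.0454). Its partner ATP5A1 had 471 and 459.7 CPM at 0 min and 441 and 454 CPM at 240 min and was not called (log2 fold change -0.055 ± 0.049 SE, edgeR adjusted p = 0.392). Of the c ring genes, ATP5G2 fell, with 51.6 and 48.05 CPM at 0 min and 41.3 and 43.3 CPM at 240 min (log2 fold change -0.23 ± 0.068 SE, edgeR adjusted p = 0.00985). ATP5G3 had 184 and 165 CPM at 0 min and 166 and 174 CPM at 240 min (log2 fold change -0.033 ± 0.063 SE, edgeR adjusted p = 0.708) and ATP5G1 had 27.6 and 22.6 CPM at 0 min and 22.7 and 24.1 CPM at 240 min (log2 fold change -0.085 ± 0.096 SE, edgeR adjusted p = 0.513), both overlapping between times. The third that fell was ATP5SL, an assembly factor of complex I by function, with 31.6 and 29.95 CPM at 0 min and 26.1 and 27.9 CPM at 240 min (log2 fold change -0.19 ± 0.068 SE, edgeR adjusted p = 0.0331). Without the first 240 min or the first 0 min replicate the calls on ATP5B, ATP5G2 and ATP5SL were lost, without the second 0 min replicate those on ATP5B and ATP5SL, and without either 10 min replicate that on ATP5B. ATP5B was also not called with upper-quartile scaling, with only the times compared or in the limma fits on TPM, and ATP5SL not with DESeq2, upper-quartile scaling, no count filter or thinning.

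Over all 5 complexes, 57 tested genes were not called at 240 min. Their log2 fold changes ran from -0.42 for ATP5E to 0.12 for ATP5J, with a median SE of 0.064. ATP5E, the epsilon subunit, had only 13 to 28 counted reads per library, although its StringTie level was 462 to 629 TPM, and its change in counts could not be resolved (log2 fold change -0.42 ± 0.37 SE, edgeR adjusted p = 0.3903). On the TPM scale its direction was the opposite, with 507 and 462 TPM at 0 min and 566 and 629 TPM at 240 min, and limma on log2(TPM + 1) called it higher (log2 fold change 0.30 ± 0.086 SE, adjusted p = 0.0267), so that no direction is given for ATP5E. UQCRHL, the copy of UQCRH, had 12 to 53 reads and an SE as wide (log2 fold change -0.28 ± 0.36 SE, edgeR adjusted p = 0.571).

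**Figure D3:**
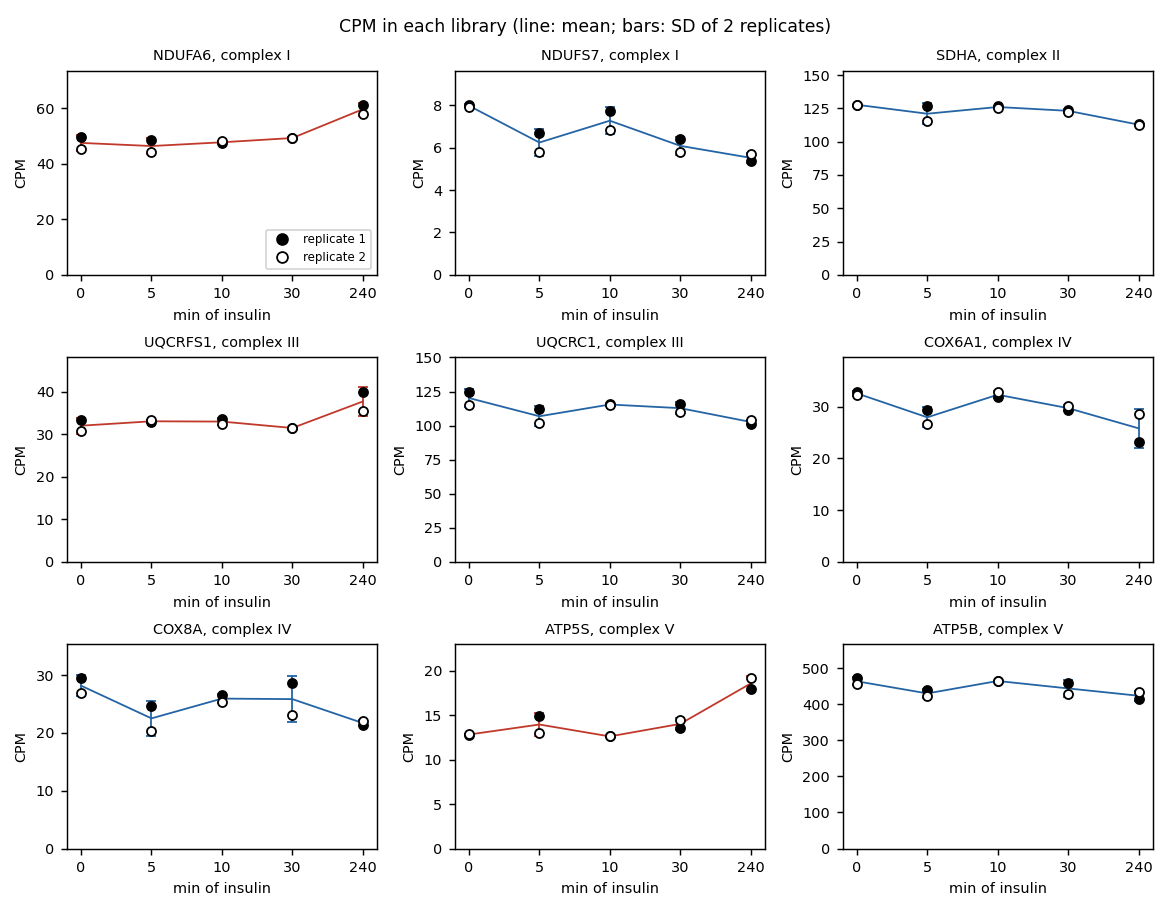
CPM of 9 named genes in each library (vertical, from 0) by minutes of insulin (horizontal, not to scale), with filled and open circles for replicates 1 and 2, a line through the means and bars for the SD. NDUFA6, UQCRFS1 and ATP5S (red) were highest at 240 min, while NDUFS7, SDHA and COX6A1 (blue) had their lowest mean there.

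At the early times no subunit gene was called. At 5 min, 0 of 78 were higher or lower at an adjusted p under 0.05 in edgeR, DESeq2 or limma, and 0% of all 13852 genes were called in edgeR. At an unadjusted p under 0.05, 24 were lower and 1, NDUFA5, higher, against 7.5% lower and 6.76% higher among all genes tested. With no low-count filter 2 of 83 were called lower, where 0.701% of the 20553 genes then tested were called, 57 higher and 87 lower. Of the 78 changes 68 were negative, with a median of -0.087 on the log2 scale against 0.000084 over all genes tested, and for 41 (52.6%) both 5 min replicates lay below both 0 min replicates, against 23.9% of all genes tested. Without the first 0 min replicate the median was -0.055, without the second -0.14 and without the first 5 min replicate -0.13. By complex the medians were -0.094 in complex I, -0.057 in II, -0.065 in III, -0.10 in IV and -0.11 in V.

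The lowest unadjusted p at 5 min belonged to NDUFB7, an accessory subunit on the intermembrane space side, which stood at 16.6 and 16.1 CPM at 0 min, 13.8 and 11.3 CPM at 5 min, 15.03 and 13.8 CPM at 10 min, 16.1 and 15.3 CPM at 30 min, and 14.4 and 13.7 CPM at 240 min. The second value at 5 min was the lowest of the 10, and the first lay within the range at 240 min (log2 fold change -0.37 ± 0.096 SE, edgeR adjusted p = 0.243). The members' transcripts are short, with a median length of 804 bases against 3206 over all genes with a value, and after a correction of each library for length and GC content the median at 5 min was -0.045 on the log2 scale. Cytosolic ribosomal protein genes, which are also short, had a median of -0.082 and mitochondrial ribosomal protein genes one of -0.053 at 5 min. The part of transcript length or of library preparation in the 5 min values was not tested further.

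At 10 min, 0 of 78 were called by any of the 3 tools, where 0.137% of all genes were, and 0 had an unadjusted p under 0.05, against 5.13% of all genes. The median was -0.0056 on the log2 scale, turning to 0.027 without the first 0 min replicate and 0.0080 without the first 10 min replicate, with 42 negative and 36 positive, and 68 of the 78 changes were smaller than 0.1 in size. At 30 min, 0 of 78 were called by any of them, where 0.332% of all genes were, and 6 were lower and 0 higher at an unadjusted p under 0.05, against 3.91% and 4.22% of all genes. The median at 30 min was -0.051 on the log2 scale, and it was -0.0075 without the first 0 min replicate, -0.086 without the second and -0.013 without the second 30 min replicate. NDUFS7 had the lowest unadjusted p there (log2 fold change -0.38 ± 0.12 SE, edgeR adjusted p = 0.341). These 4 comparisons share the 0 min libraries, of which the first lay above the second for the median gene of every complex.

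The summed share of the subunit genes in each library moved within narrow bounds. Summed CPM was 5325 ± 182 at 0 min, 5041 ± 113 at 5 min, 5305 ± 25.8 at 10 min, 5154 ± 143 at 30 min and 5101 ± 50.5 at 240 min (SD, n = 2 each). Only for complex II were both 240 min sums, 215 and 214 CPM, below those of all the other libraries, which held 220.2 to 239.6 CPM.

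**Figure D4:**
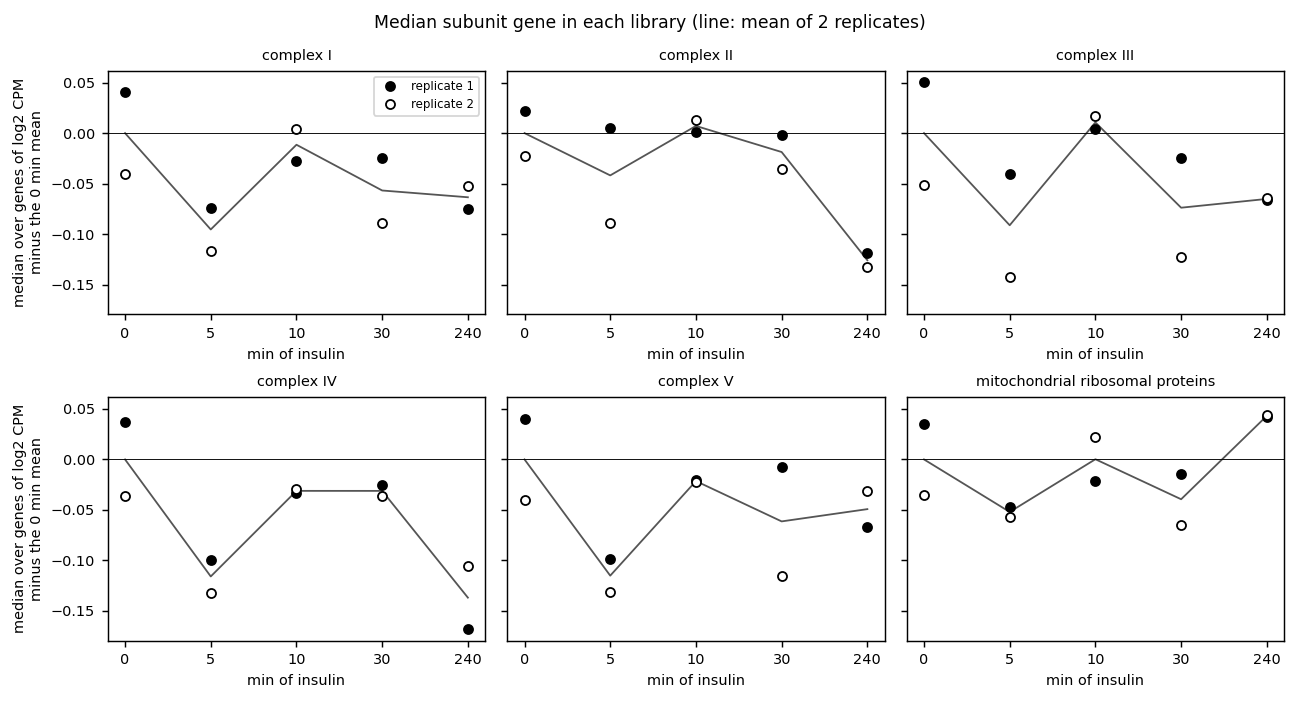
Median over the genes of each complex, and over mitochondrial ribosomal protein genes, of log2 CPM minus the mean at 0 min (vertical) in each library by minutes of insulin (horizontal, not to scale), with filled and open circles for replicates 1 and 2 and a line through their means. The replicates of a time often differed by as much as the times did, and at 240 min complex II and IV libraries lay between -0.17 and -0.11 while mitochondrial ribosomal protein genes lay at 0.042 and 0.044.

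Against 30 min, the time closest before it, fewer subunit genes were called at 240 min. Of 78, 4 were higher and 4 lower (10.3%), where 38.2% of all genes were called (19.8% higher and 18.4% lower). Those that were higher were ATP5S (log2 fold change 0.41 ± 0.091 SE, edgeR adjusted p = 0.00147), NDUFA6 (log2 fold change 0.28 ± 0.062 SE, edgeR adjusted p = 0.00145), UQCRFS1 (log2 fold change 0.27 ± 0.071 SE, edgeR adjusted p = 0.00582) and NDUFV3 (log2 fold change 0.20 ± 0.070 SE, edgeR adjusted p = 0.0283). Those that were lower were COX8A, COX5B, NDUFC1 and NDUFB2, with log2 fold changes of -0.26, -0.15, -0.23 and -0.23 and adjusted p of 0.0454, 0.0307, 0.0467 and 0.0440 in edgeR. The number lower was unstable, at 0 with DESeq2, upper-quartile or ERCC scaling and 7 to 9 with RLE normalization, the likelihood ratio test, at least 10 counts in every sample, the replicate block or length and GC correction. Of all genes tested, 6.62% were called in either direction with ERCC scaling, 30.8% with DESeq2 and 38.2% to 41.3% in the other fits named. The comparison shares the 240 min libraries with that against 0 min.

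Genes that serve the same pathway without matching the names were taken from written lists. Of 7 genes listed as other subunits and cytochrome c, not all of them subunits, 1 rose and 1 fell at 240 min (14.3% each). Among all genes tested 20.6% were higher and 20.4% lower. CYCS, which encodes cytochrome c, the carrier between complexes III and IV, had 81.5 and 71.9 CPM at 0 min and 115 and 118 CPM at 240 min (log2 fold change 0.61 ± 0.060 SE, edgeR adjusted p = 1.89e-07). C7orf55, an ATP synthase assembly factor also known as FMC1, had 3.29 and 3.26 CPM at 0 min and 2.16 and 2.31 CPM at 240 min (log2 fold change -0.55 ± 0.19 SE, edgeR adjusted p = 0.02604), and its call was lost without any 1 of the 4 libraries compared, with DESeq2 and with limma on TPM. Of 47 assembly factors tested 12 rose and 2 fell, with a median of 0.047 on the log2 scale, against 20.6% higher and 20.4% lower among all genes tested. The 4 with the largest changes all rose. COA7, a complex IV assembly factor, had 29.6 and 28.3 CPM at 0 min and 45.9 and 44.9 CPM at 240 min (log2 fold change 0.65 ± 0.063 SE, edgeR adjusted p = 1.46e-07), and COX20, which guides a mitochondrially encoded complex IV subunit, had 53.5 and 50.97 CPM at 0 min and 77.04 and 74.1 CPM at 240 min (log2 fold change 0.54 ± 0.063 SE, edgeR adjusted p = 1.55e-06). NDUFAF4, which acts in complex I assembly, had 12.2 and 12.3 CPM at 0 min and 18.8 and 18.5 CPM at 240 min (log2 fold change 0.61 ± 0.084 SE, edgeR adjusted p = 1.11e-05). SDHAF3, which serves the iron-sulfur subunit of complex II, had 15.2 and 14.2 CPM at 0 min and 21.3 and 20.2 CPM at 240 min (log2 fold change 0.51 ± 0.083 SE, edgeR adjusted p = 6.48e-05). Of the 10 genes named from these and the regulators' list, PPARGC1A and PPARGC1B were the ones still called with ERCC scaling.

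Of 17 regulators tested, 6 rose (35.3%) and 3 fell (17.6%) at 240 min, against 20.6% and 20.4% of all genes tested. PPARGC1A, the coactivator PGC-1 alpha, fell, with 36.01 and 36.8 CPM at 0 min and 18.7 and 16.6 CPM at 240 min (log2 fold change -1.04 ± 0.085 SE, edgeR adjusted p = 2.00e-08), whereas its relatives rose. PPARGC1B had 2.55 and 1.82 CPM at 0 min and 6.796 and 7.204 CPM at 240 min (log2 fold change 1.74 ± 0.18 SE, edgeR adjusted p = 2.82e-07), and PPRC1 had 52.3 and 52.1 CPM at 0 min and 79.2 and 79.5 CPM at 240 min (log2 fold change 0.60 ± 0.053 SE, edgeR adjusted p = 4.45e-08). C10orf2, the Twinkle helicase of mitochondrial DNA, had 36.5 and 37.99 CPM at 0 min and 54.3 and 50.2 CPM at 240 min (log2 fold change 0.49 ± 0.063 SE, edgeR adjusted p = 4.87e-06). The 2 times did not overlap for any of these 4 genes. Of all 13852 genes tested, 4826 also lay above and 4835 below in both replicates. Mitochondrial ribosomal protein genes, of which 76 were tested, had 16 higher (21.1%) and 3 lower (3.95%) at 240 min and a median of 0.053 on the log2 scale. For the subunit genes these were 7.69% higher, 19.2% lower and -0.066, against 20.6% and 20.4% of all genes tested. Cytosolic ribosomal protein genes, of which 78 were tested, had 3 higher and 28 lower, with a median of -0.092 and 62 negative. The differences between these sets were not tested.

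IR ChIP-seq peaks were found at the start of a few subunit genes. Of the 78 tested, 8 had 1 of the 1971 peaks within 1 kb of the start site (10.3%, 95% Wilson interval 5.29% to 19.0%), where 12.3% of all genes tested did. Above a mean level of 20 CPM, 5 of 68 subunit genes had a peak, where 15.2% of all such genes did. With only peaks scoring above the median the order was the reverse, 7 of 78 (8.97%) against 6.8% of all genes. Within 0.5 kb of the start it was 10.3% against 11.7%, within 5 kb of the gene body 10.3% against 15.7%, and by HOMER's nearest gene 7.69% against 8.58%. Counting by peaks has no replicate, as 1 IR library was analysed, and the interval covers counting error only. Of the 8, 3 were complex I genes, 1 was in complex III, 1 in complex IV and 3 in complex V. UQCR10, a small complex III subunit, had the highest peak score, 1193, rank 119 of all peaks, at chr22:30162828-30163547 (hg19) across its start. Its RNA did not differ at 240 min by the test (log2 fold change 0.051 ± 0.060 SE, edgeR adjusted p = 0.527).

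The next scores were 340 for NDUFA3 (chr19:54605912-54606332), 307 for COX7C (chr5:85913494-85914137), 286 for ATP5D (chr19:1241454-1241976) and 266 for ATP5O (chr21:35287776-35288368), whose peaks all covered the start site. NDUFB2, ATP5J and NDUFB5 had scores of 144, 120 and 35, against a median of 79 over all peaks. The peak at ATP5J (chr21:27107172-27107927) was assigned by HOMER to GABPA, which starts beside ATP5J on the other strand, and that at NDUFB2 to the antisense gene NDUFB2-AS1. Peaks were given on hg19 and the printed upstream sequences on GRCh38.p14, and the 2 builds were not converted into each other. Of the 8 genes with a peak, NDUFA3 was lower at 240 min against 0 min, and the median log2 fold change was -0.074 for these 8 and -0.057 for the 70 without a peak.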

How the data were processed

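RNA-seq counts are the raw counts per gene that the authors deposited, made with Trim Galore 0.6.4, STAR 2.6.1d on hg19 and featureCounts 1.6.4, reverse-stranded, duplicates marked. TPM values are those the authors deposited from StringTie, whose FPKM and coverage the authors also deposited and which were not used. The peak list the authors deposited holds a score per peak from MACS2 2.2.7.1, after alignment with BWA 0.7.17-r1188, with HOMER annotation. The extract text of the RNA and ChIP labels appears exchanged.

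Counts were analysed in edgeR 4.0.16 (R 4.3.3) by the quasi-likelihood test after TMM normalization, with time as the factor over 10 libraries and 13852 genes passing filterByExpr, and p-values were adjusted over all of them (threshold 0.05). The 92 ERCC rows stayed out of library sizes and tests. CPM are counts relative to TMM library sizes. Standard errors were computed from each fold change and its F statistic. The fit was tested on simulated data. Alternatives were DESeq2 1.42.0, RLE, upper-quartile and ERCC scaling, no filter, at least 10 counts in every sample, only the times compared, a replicate block, limma 3.58.1 on TPM with pseudocounts of 1 and 0.1, also with a mean TPM of at least 1, edgeR's likelihood ratio test, loess correction (span 0.3) for length and GC content (known for 96.3% of tested genes), thinning, and each library left out in turn.

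The members and lists were chosen with earlier results of these data known. Named were, per complex, the 3 called genes with the largest rise and fall at 240 min, the highest and lowest level, tissue-form pairs, the SDH genes and up to 4 called genes of each other list. Genes outside this rule were picked with their values in view, and the short motif cores after a search with longer forms. Python 3.11.15, pandas 2.3.3, numpy 2.4.6, scipy 1.17.1 and matplotlib 3.10.9 were used. Promoters were from RefSeq.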

Additional observations from a re-analysis of the deposited data

How the results depend on the processing

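Every subunit gene called in edgeR kept its direction in each fit run. ATP5E, not called there, had the opposite direction in the limma fits on TPM, which called it higher. The number of subunit genes called depended more on the processing. At 240 min against 0 min, 3 were higher with DESeq2 and 0 with ERCC scaling, against 6, and 0 were lower with ERCC scaling and 8 with each limma fit on TPM, against 15. The share called over all genes tested also fell, from 41% to 32% with DESeq2 and 7.65% with ERCC scaling. That share fell as well when either replicate of 0 or 240 min was left out. With libraries left out in turn, 2 to 6 were higher and 5 to 16 lower. At 5 min 2 of 83 were lower with no low-count filter, where 0.701% of the 20553 genes then tested were called. Against 30 min, 0 were higher with ERCC scaling and 2 to 5 with a library left out. The number lower against 30 min was 0 with DESeq2, upper-quartile or ERCC scaling, 1 with only the times compared, 2 with limma on log2(TPM + 1) or log2(TPM + 0.1), 7 with at least 10 counts in every sample, the likelihood ratio test or the replicate block, 8 with RLE normalization, 9 with length and GC correction, and 0 to 9 with a library left out. Among all genes tested, 6.62% were called in either direction against 30 min with ERCC scaling and 30.8% with DESeq2. In the other fits named that leave out no library this was 32.4% to 41.3%. The median log2 fold change over the tested genes with ERCC scaling was -0.18 at 5 min, -0.34 at 10 min, -0.19 at 30 min and -0.19 at 240 min. Against 30 min it was 0.00033, 0.00027 and 0.00033 in the 3 limma fits on TPM. With a library left out the medians ranged from -0.14 to -0.055 at 5 min, -0.056 to 0.027 at 10 min, -0.086 to -0.0075 at 30 min, -0.11 to -0.043 at 240 min, and -0.061 to -0.0036 against 30 min. The causes were not tested.

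Of 720 values of named genes under 24 alternatives, 640 kept their side of the threshold, 74 were no longer called and 6 became called. All 74 belonged to genes called in edgeR. Some genes that were not called changed sign, such as UQCRB, at 0.092 in edgeR and down to -0.055 with a library left out. Whether the replicate numbers pair the samples is not known, as the labels only number them. The differences between replicates correlated at -0.39 to 0.35 between times, which cannot decide it. The replicate block called 23 subunit genes at 240 min and 11 against 30 min, where 21 and 8 were called without it. Of all genes tested it called 42.2% and 39.5%, where 41% and 38.2% were called without it. Each time had 2 libraries, so a fit without 1 assumes that the remaining library varies like those of other times. A change of a gene with few reads, such as ATP5E or UQCRHL, could not be resolved at this depth.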

Other observations

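Read counts on genes and StringTie levels, which the authors made from the same alignments, differed for a few subunit genes. ATP5E had 192 counted reads in the 10 libraries together and a mean of 549 TPM, below ATP5A1 and ATP5B in complex V, which had 116703 and 113552 reads. UQCRHL had 245 reads and a mean of 91.6 TPM, whereas UQCRH had 9896 reads and 222 TPM. ATP5L2 had 36 reads and 11.3 TPM. NDUFC2, whose exons are shared with the readthrough gene NDUFC2-KCTD14, ranged from 68.4 TPM in the first 30 min replicate to 131 TPM in the first 10 min replicate. These values are given without an explanation.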
